A study of Oncorhynchus mykiss with 525 samples.

Results

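The 2 highest concentrations of the chemical coded col were compared with solvent in RTgill-W1, a line of epithelial cells from rainbow trout gill. The wells were chosen by their labels and by their total count, and the genes described are those that changed in the same direction at both concentrations. Of the 501 wells of the series with counts, 4 are such col wells, 2 per concentration, and 24 are their solvent wells. Of 44260 Ensembl gene IDs, 3001 had enough counts to be tested, and 366 changed at both concentrations.

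Gill epithelium is the barrier between a fish's blood and the surrounding water, where gases, ions and dissolved chemicals cross. The RTgill-W1 line is used as an animal-free test of whether a chemical in water is acutely toxic to fish. The submitters' purpose was to find the concentration at which the transcriptome starts to respond, which is called a transcriptomic point of departure.

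Cells were exposed for 24 h in 96-well plates, and each replicate came from its own cell passage on its own plate. The solvent wells received DMSO, and the labels do not say whether col was dissolved in DMSO or in water. Concentration 1 of col is labelled 3.99 and concentration 2 is labelled 1.33, without a unit. The concentrations go down to number 8 in 3-fold steps, and the chemical behind the code is not named. No genotype or treatment other than the exposure distinguishes the groups. The labels call a passage a biological replicate, all from 1 line, so the p-values speak of the spread between passages of that line and between wells.

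The RNA of each well carried a well code before pooling, so the number of counts in a well follows its share of the pool. At concentration 1 the wells of replicates 1 and 3 held 101786 and 77699 counts. At concentration 2 they held 81835 and 60123. The wells of replicate 2 held 5764 and 7940 counts and were left out of the tests because their totals were under 24095, 10% of the median well of the series. Over the series, the nearest well kept had 24620 counts and the nearest left out had 22101. The solvent wells held 25250 to 539790 counts, with a median of 174235.5. The 2 wells of each concentration differed by more than counting noise, with a chi-square per degree of freedom of 3.55 and 3.29, and no pair of solvent wells came below 1.66. No wells were therefore merged as repeats, but the 24 solvent wells come from 3 passages and are not independent within a plate.

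Each concentration sat in a plate row of its own, and all col wells were pooled in 3 libraries that held no solvent well (0 libraries shared). The solvent wells of the rows in which concentrations 1 and 2 sat held 533131 and 539790 counts on plate 1, 200430 and 82867 on plate 2, and 441585 and 336938 on plate 3. Row and concentration cannot be told apart within col, and neither can library and exposure when col is set against solvent. A comparison within the col libraries is therefore given with the results. In a bulk well, fewer cells and less RNA per cell cannot be told apart.

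At the highest concentration 688 of 3001 genes changed, 22.9%, of which 243 rose (8.1% of those tested) and 445 fell (14.8%), as called by the quasi-likelihood test of edgeR where the p adjusted by Benjamini-Hochberg was under 0.05. At the second highest 619 changed, 20.6%, of which 167 rose (5.56%) and 452 fell (15.1%). The genes changed at both with 1 sign were 366, or 12.2% of those tested. They were 53.2% of the first list and 59.1% of the second. Of them 83 rose (2.77% of the genes tested) and 283 fell (9.43%). The 2 lists share the same solvent wells and the same fit, so these counts describe the overlap and do not test it. One gene, chosen here for its sign, passed in opposite directions, with log2 fold changes of 1.37 and -6.35.

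The member nearest to the threshold had adjusted p of 0.0498 and 0.00406 (edgeR) at log2 fold changes of -1.996 and -6.97, and the nearest gene outside had 0.00683 and 0.0509 at -2.72 and -1.86.

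The risen genes changed by a median log2 fold change of 2.02 at concentration 1, from 0.86 to 8.75, and of 2.09 at concentration 2, from 0.52 to 8.15. The median standard error at concentration 1 was 0.48. Of the 83, 80 were at least 2-fold higher at both concentrations and 38 at least 4-fold higher. For 2 of the 83, without a count in any solvent well, the fitted size depends on the small number added before taking logarithms. The fallen genes changed by a median of -2.43 at concentration 1, from -9.53 to -0.73, and of -2.71 at concentration 2, from -9.01 to -0.71. Their median standard error was 0.57. Of the 283, 269 were at least 2-fold lower at both and 166 at least 4-fold lower. The median of all genes tested was -0.44 at concentration 1 and -0.71 at concentration 2, so the members' values are read against those medians.

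The largest falls are limited by the depth of the treated wells. Of the fallen genes, 52 had no count in either well at concentration 1, 68 had none at concentration 2, and 38 had none in all 4 wells. For these a fitted fold change depends on the small number added before taking logarithms. By counting error alone, a count of 0 over both wells allows up to 3 counts. The 2 wells of each concentration differed by more than counting noise, so this limit may be too low. It is 33.7 CPM (counts scaled to a common library total) at concentration 1 and 41.7 CPM at concentration 2. With such genes placed at that limit, the medians of the 283 were -2.02 and -2.05.

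**Figure D1:**
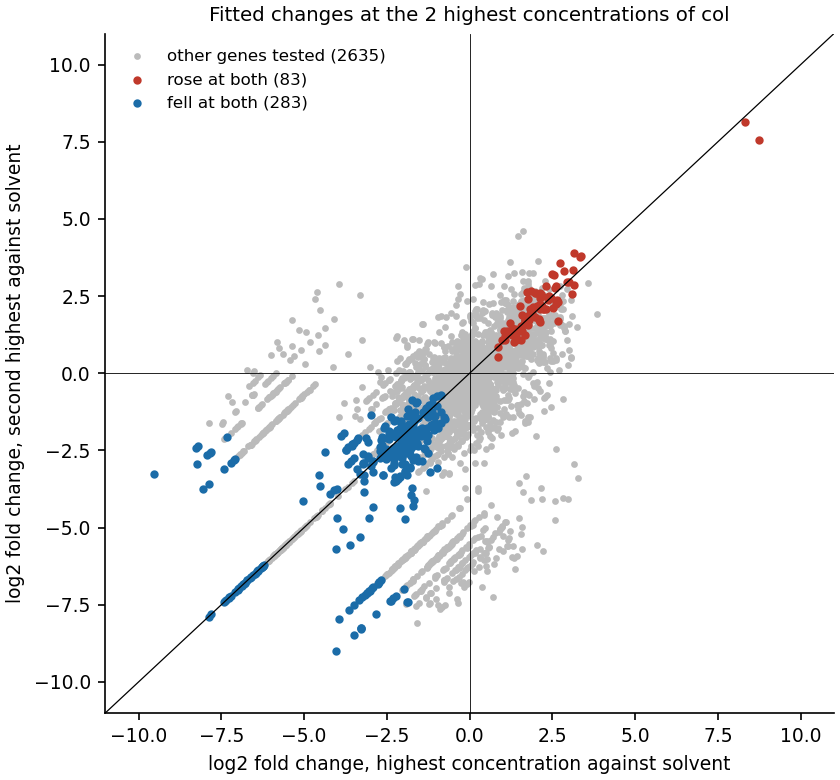
The fitted log2 fold change of each of the 3001 genes tested is plotted for the highest concentration (x axis) and the second highest (y axis), each against solvent. The 83 risen genes (red) and the 283 fallen genes (blue) lie in opposite quadrants, and the diagonal streaks at the lower left are genes without a count in the treated wells, whose fitted values are no measured size.

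Many genes stood clear of every solvent well, with 41 of 83 higher in all 4 col wells than in any of the 24 solvent wells. Of the fallen genes, 181 of 283 were lower in all 4 than in any solvent well. Over all genes tested, 8.93% did not overlap, 1.63% higher and 7.3% lower. When each col well was set against the 8 solvent wells of its own plate, 80 of 83 risen genes were higher in all 4 wells. All 283 fallen genes were lower in all 4 wells by the same measure. These col and solvent wells also chose the genes, so the counts in this paragraph describe the members and do not test them. For the within-plate measure, no share over all genes tested was computed. The within-plate medians of the risen genes were 2.00 and 1.79 on the log2 scale at concentration 1 (plates 1 and 3), and 1.86 and 1.92 at concentration 2. For the fallen genes they were -2.24 and -2.24, then -2.26 and -2.63.

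The risen genes came from all levels of abundance and the fallen genes from the upper ones. When the genes tested were split into 3 equal parts by their solvent mean, the low part held 21 risen and 0 fallen genes. The middle part held 17 and 28, and the high part 45 and 255. A fall of a gene with few counts cannot be detected at this depth, so the lack of low genes among the falls is not a result. The filter on low counts worked in the other direction for the rises: 64 of the 83 passed it by their solvent wells alone and 19 only through col wells, whereas all 283 fallen genes passed by solvent wells alone. A risen gene of the latter kind had to differ to be tested at all.

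The most abundant part of the transcriptome was among the risen genes. The 4 most counted IDs of the series form 2 pairs with nearly equal counts, so how reads were divided within a pair is uncertain. All 4 rose, by 1.67 to 1.70 on the log2 scale at concentration 1 and by 1.72 to 1.83 at concentration 2. Together they held 60.7% and 59.3% of the counts in the wells at concentration 1 and 68.3% and 60.2% at concentration 2. In solvent wells they held 41.6% to 51.1% on plate 1, 18.7% to 27.8% on plate 2 and 35.7% to 44.6% on plate 3. Plate 2 thus stood apart already in its solvent wells, and the col wells of concentrations 1 and 2 on plates 1 and 3 lay above all solvent wells. The fitted sizes set these col wells against the solvent wells of all 3 plates, so the low values of plate 2 enter them. They also carry the scaling factors of the fit (TMM), which were 0.487 to 0.669 in these col wells and 0.884 to 1.74 in solvent wells. The median solvent share was 46.3% on plate 1 and 38.8% on plate 3, so the shares of counts rose by less than the fitted sizes.

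Outside these 4 IDs, the other 79 risen genes took 32.8% and 32.3% of the remaining counts at concentration 1, and 34.3% and 30.0% at concentration 2. In solvent wells they took 4.57% to 5.80% on plate 1 and 4.43% to 5.46% on plate 3. One gene, the most counted of them, held 71.5% of their summed counts. It made up 9.33% and 9.97% of all counts at concentration 1 and rose by 2.60 and 2.23 on the log2 scale (edgeR, adjusted p = 0.00032 and 0.00292). Without it the remaining risen genes took 9.07% and 7.75% at concentration 1 and 11.2% and 9.42% at concentration 2. The solvent wells then lay between 2.75% and 4.21%, still below each of these col wells at concentrations 1 and 2. The 283 fallen genes took 5.33% and 4.25% of these counts at concentration 1 and 5.99% and 4.28% at concentration 2, against 22.7% to 25.9% and 20.1% to 25.4% in the solvent wells of plates 1 and 3.

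The left-out wells of replicate 2 carried the same shift, although they played no part in choosing the genes. The 79 risen genes took 33.9% of the counts outside the 4 IDs at concentration 1, with an exact binomial 95% interval of 32.3% to 35.4%. At concentration 2 they took 37.6%, with an interval of 36.1% to 39.0%. The solvent wells of plate 2 ranged from 11.8% to 17.4%. The fallen genes took 6.94% (6.13% to 7.82%) and 5.86% (5.19% to 6.60%), against 17.4% to 21.0% in those solvent wells. Without the most counted gene the risen share was 5.85% and 8.19%, against 3.01% to 4.21% in solvent. The intervals cover counting error only.

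**Figure D2:**
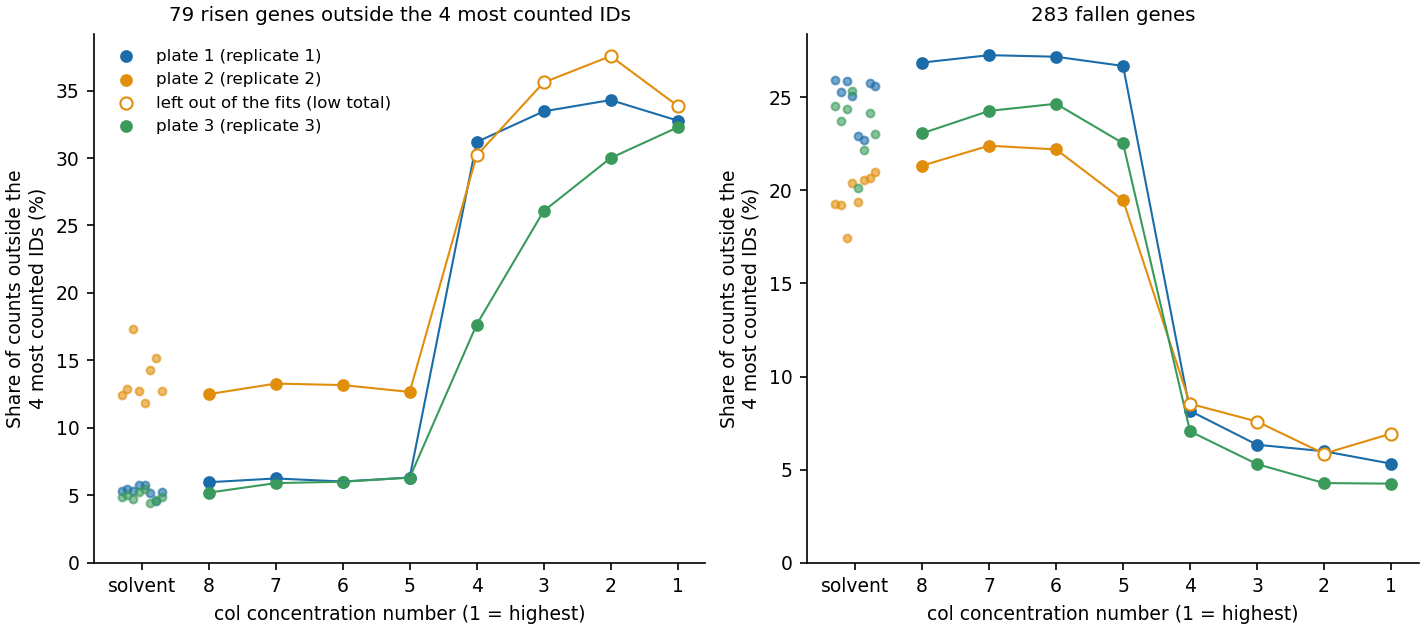
The share of counts outside the 4 most counted IDs (y axis, percent) that fell on the 79 risen genes (left) and the 283 fallen genes (right) is plotted for each solvent well and each col well by concentration number (x axis), coloured by plate, with open circles for the low-count wells of replicate 2. Shares stay near the solvent level from concentration 8 to 5 on each plate and depart from it at concentrations 4 to 1, in the open circles as well.

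Relative shares can rise while a gene's own counts do not, so the counts were also read without any scaling, within the library that held all wells of a replicate. The mean of concentrations 7 and 8 of that library served as the base. At concentration 1 the wells held 24.2% and 23.7% of the base in all counts (replicates 1 and 3). The 4 most counted IDs held 29.8% and 32.1% of theirs. The 79 other risen genes held 100.7% and 99.9%, a sum that rested on 1 gene. The most counted of them held 132% and 171% of its own base, and the remaining 78 held 62.2% and 43.1%. The fallen genes held 3.69% and 3.08%, and the other genes tested 14.9% and 11.0%. At concentration 2 the same 4 sets in the order 4 IDs, risen, fallen and other held 27.0%, 68.4%, 2.70% and 9.32% in replicate 1. In replicate 3 they held 25.2%, 70.2%, 2.35% and 9.16%. Without the most counted gene the risen genes then held 49.9% and 39.6%. That gene itself then held 83.4% and 109% of its base, so its unscaled count did not rise in every well. In the left-out wells of replicate 2 it held 15.0% at concentration 1 and 19.2% at concentration 2. Those wells held 5.82% and 8.02% of the base in all counts.

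Gene by gene, the unscaled count of a risen gene exceeded the base in 23 and 15 of 83 cases at concentration 1 and in 17 and 13 at concentration 2. Of all genes tested, 5.03% and 3.53% did so at concentration 1 and 2.67% and 3.07% at concentration 2, and 0 of the 283 fallen genes did. Most rises were therefore rises relative to the rest of the RNA in the well and not in unscaled counts. With so few counts in these wells, a gene that is lower after scaling is also lower before it, so the unscaled counts add nothing on the falls. In the well of replicate 2 at concentration 1, which held 5.82% of its base, the risen genes held 14.3% and the fallen genes 1.72%.

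**Figure D3:**
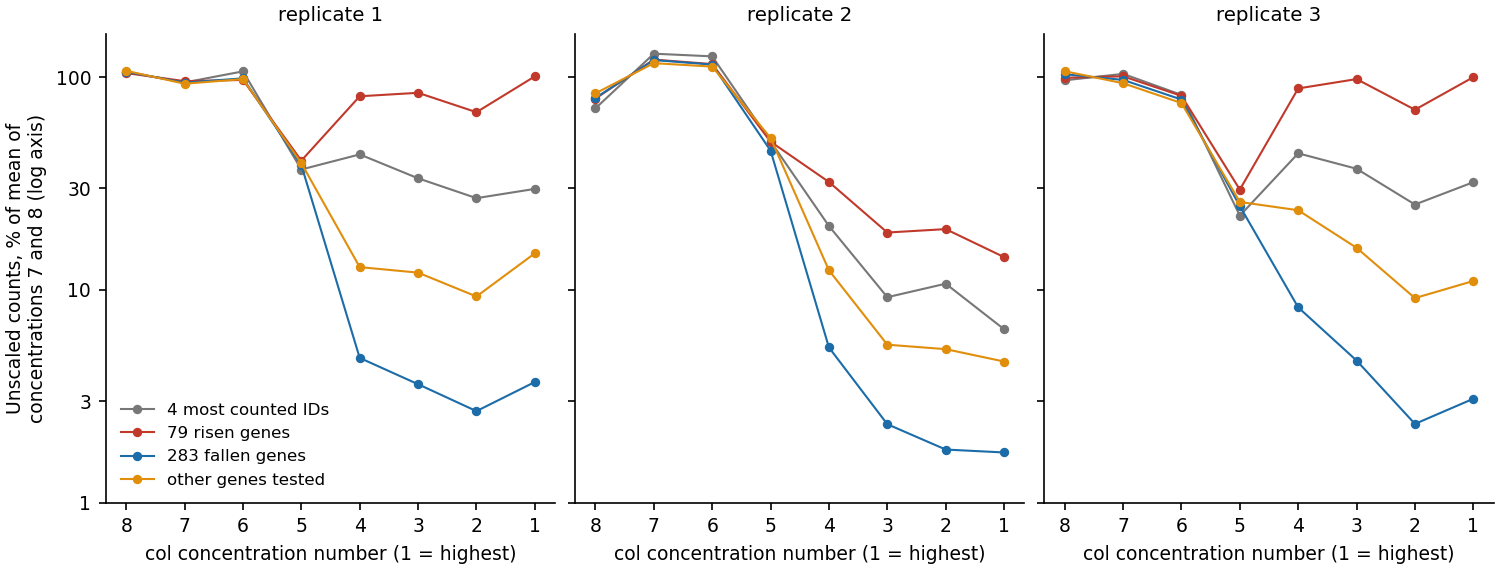
Unscaled summed counts are plotted by concentration number (x axis) as a percentage of the mean of concentrations 7 and 8 of the same replicate (y axis, log scale) for 4 sets of genes, 1 panel per replicate. The sets run together to concentration 5, where totals had already dropped, and separate from concentration 4 on, with the 79 risen genes highest and the 283 fallen genes lowest in each panel.

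Across the other concentrations, which share the solvent wells, the risen genes had median log2 fold changes of 1.71 and 1.74 at concentrations 3 and 4 and of -0.05 at concentration 5. Their medians were -0.19, -0.09 and 0.00 at concentrations 6 to 8. The fallen genes had medians of -2.22 and -1.73, then -0.04, 0.08, 0.11 and 0.06. Of the 83 risen genes 63 passed the test as higher at concentration 3 (7.6% of all genes tested) and 59 at concentration 4 (7.93%). Of the 283 fallen genes 231 passed as lower at concentration 3 (15.9%) and 206 at concentration 4 (12.7%). At concentration 5 only 1 risen and 0 fallen genes passed, with 2 genes in all (0.0666%). At concentrations 6 to 8 the edgeR test called 0 genes, with 119, 81 and 68 at an unadjusted p under 0.05, and DESeq2 was not run there. Concentration 4 is labelled 0.15 and concentration 5 is labelled 0.05.

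At concentration 5 the wells held 38.0%, 50.5% and 24.4% of the base in replicates 1 to 3, and the risen genes took 6.32%, 12.7% and 6.31% of the counts outside the 4 IDs. The highest solvent wells of these plates reached 5.80%, 17.4% and 5.46%. On plate 1 the share also lay above solvent at concentrations 6 to 8, at 6.03%, 6.25% and 5.97%. On plate 3 it lay above solvent at concentrations 6 and 7, at 6.01% and 5.91%, and within the solvent range at concentration 8. On plate 2 concentrations 5 to 8 all lay within the solvent range. A share slightly above solvent was therefore not particular to concentration 5. In replicate 3 the total at concentration 5 was 79997, about that of concentration 1 with 77699, where the risen share was 32.3%. Whether the risen share depends on the total of a well was not tested.

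A comparison within the col libraries used wells outside the 2 contrasts that chose the genes, although these wells had entered the same low-count filter, scaling and estimate of spread. Concentrations 3 and 4 together (4 wells) were tested against concentrations 7 and 8 (6 wells), and 746 of 1584 genes changed, 47.1%, of which 18.8% of the genes tested were higher and 28.3% lower. Of the 83 risen genes 66 were tested and 65 were called higher, with a median log2 fold change of 2.09. Of these 66, 52 passed the filter by the wells of concentrations 5 to 8 alone, and the others needed wells in which they were high. Of the 283 fallen genes 272 were tested and 238 were called lower, with a median of -1.81. None of them was called in the other direction (0 risen and 0 fallen genes). All 3 libraries entered on the side of low concentrations and 2 on the side of high ones.

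**Figure D4:**
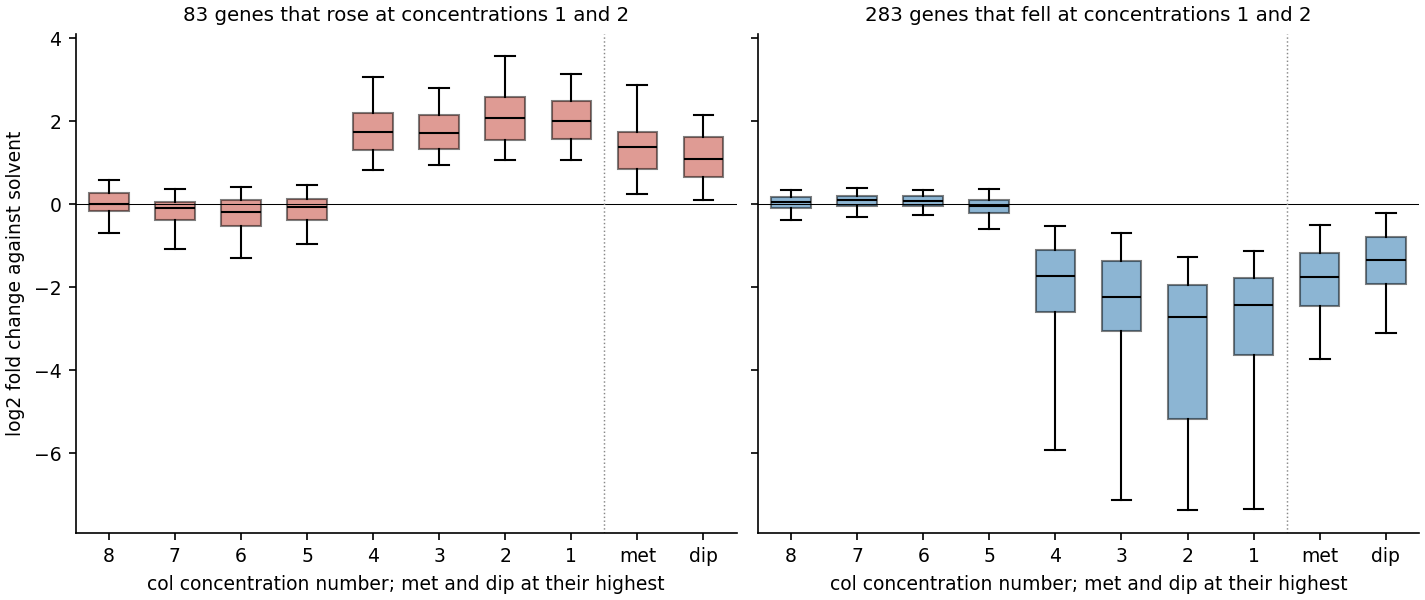
The log2 fold change against solvent (y axis) is plotted for the 83 risen genes (left) and the 283 fallen genes (right) at each concentration number of col and at the highest concentration of met and dip (x axis). Boxes span the quartiles with the median as a line and whiskers reach the 5th and 95th percentiles, and the boxes sit at 0 from concentrations 8 to 5 and away from it from 4 to 1.

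No difference between the 2 highest concentrations passed the test. The number called was 0 of 3001 genes (0.0%), with 226 at an unadjusted p under 0.05 by edgeR and 0 passing with 165 by DESeq2. The risen genes differed by a median of -0.03 on the log2 scale (concentration 1 minus 2), with quartiles of -0.28 and 0.16. The fallen genes differed by a median of 0.05, with quartiles of -0.29 and 0.74. The median standard error of such a difference was 0.67 for the risen and 0.77 for the fallen genes, so a 2-fold difference in 1 gene was not detectable. Of the risen genes 40 of 83 had the larger fold change at concentration 1. Of the 201 fallen genes with a count at both concentrations, 86 did.

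The IDs are not paired with gene names in the sources used here, and 0 of them matched the reference table of names, so no function is given and the line's epithelial markers could not be checked. The 4 IDs below were picked by a rule on size, level and agreement between plates, which left 38 rises and 276 falls to choose from.

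ENSOMYG00000004269 rose most by that rule. Its CPM was 778 and 2504 at concentration 1 (replicates 1 and 3) and 3710 and 627 at concentration 2. The solvent wells ranged from 13.5 to 991 CPM with a median of 45.1. The higher solvent values came from plate 2, where the median was 378 CPM, against 41.8 and 37.9 CPM on plates 1 and 3. The col wells thus overlapped the solvent wells of plate 2 and lay above those of their own plates. Lying above them was not particular to high concentrations. On plate 1 the ID had 274, 242 and 182 CPM at concentrations 8, 7 and 6, against at most 69.0 CPM in solvent. Concentration 5 lay within the solvent range there, at 28.8 CPM. On plate 3 concentration 7 lay above solvent (141 against at most 114 CPM), and concentrations 8, 6 and 5 did not. Its level at concentrations 1 and 2 was higher than all of these. Its log2 fold change was 3.34 with a standard error of 0.75 at concentration 1 (edgeR, adjusted p = 0.000844) and 3.76 with 0.72 at concentration 2 (adjusted p = 0.000112). These sizes include the solvent wells of plate 2. With the solvent wells of plates 1 and 3 only, they were 5.05 and 5.49. With the plate as a replicate block they were 4.63 and 4.91, and without a low-count filter 2.19 and 2.84. With 1 of replicates 1 and 3 left out, and so 1 col well per concentration, the size depended on the well that remained. At concentration 1 it was 3.45 without replicate 1 and 2.02 without replicate 3. At concentration 2 it was 1.49 without replicate 1 and 4.31 without replicate 3. The test did not call this ID in every such fit.

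ENSOMYG00000004265 had counts close to those of ENSOMYG00000004269 in the 4 col wells. Its counts were 42 and 79 at concentration 1 and 156 and 22 at concentration 2, beside 40, 94, 137 and 22 for the other ID. Whether reads were divided between similar copies is not given in the sources used here, so the values of both IDs are uncertain. Its CPM was 817 and 2104 at concentration 1 and 4225 and 627 at concentration 2, against 0 to 969 CPM in solvent with a median of 47.0. On plate 1 it also had 297, 239 and 237 CPM at concentrations 8, 7 and 6, against at most 69.0 CPM in solvent. Concentration 5 lay just above that, at 72.0 CPM. On plate 3 concentration 7 lay above solvent (166 against at most 111 CPM), and concentrations 8, 6 and 5 did not. Its log2 fold change was 3.15 with a standard error of 0.77 (edgeR, adjusted p = 0.002) and 3.91 with 0.71 (adjusted p = 4.19e-05). With the solvent wells of plates 1 and 3 only, it was 4.93 and 5.70. With the plate as a replicate block it was 4.46 and 5.02, and without a low-count filter 2.04 and 2.99. Its size too depended on the well that remained. At concentration 1 it was 3.18 without replicate 1 and 2.08 without replicate 3. At concentration 2 it was 1.47 without replicate 1 and 4.48 without replicate 3. The test did not call this ID in every such fit either.

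ENSOMYG00000037113 had no count in the 4 col wells. It had none in the 2 left-out wells of replicate 2, where a 0 is uninformative because the totals were so low. In solvent the ID was found in every well, at 92.0 to 331 CPM with a median of 165, and with 4 to 108 counts. The groups did not overlap. It was at least 5.22-fold lower at concentration 1 and at least 4.23-fold lower at concentration 2 (edgeR, adjusted p = 6.4e-05 and 0.000243). These bounds take the floor of 3 counts over both wells and allow for counting error only. At concentration 4 it held 86.9 and 14.8 CPM, from 4 and 1 counts.

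ENSOMYG00000046543 behaved in much the same way, with no count in the 4 col wells. It had none in the left-out wells either, where a 0 is again uninformative. The solvent wells ranged from 28.0 to 293 CPM with a median of 160, and the lowest of them held 1 count. With the same floor, which allows for counting error only, it was at least 4.78-fold and at least 3.87-fold lower (edgeR, adjusted p = 0.000378 and 0.00114). At concentration 4 it held 65.2 CPM in replicate 1, from 3 counts, and none in replicate 3.

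**Figure D5:**
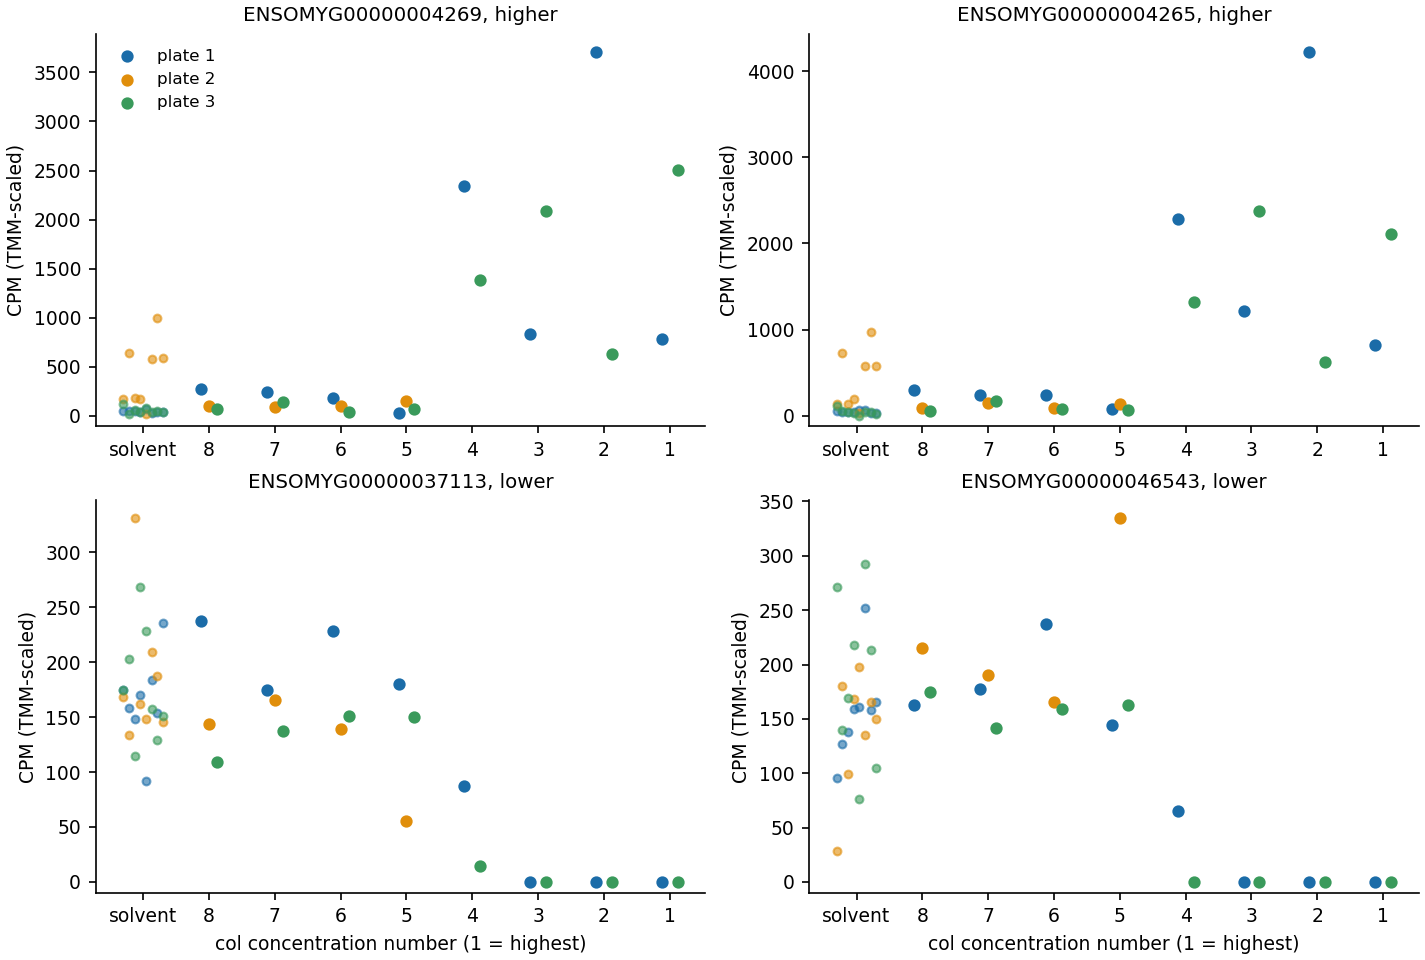
TMM-scaled CPM (y axis) of the 4 named IDs is plotted for each solvent well and each col well kept, by concentration number (x axis) and plate (colour). The upper 2 IDs are high at concentrations 4 to 1 and in some solvent wells of plate 2, and the lower 2 are at 0 at concentrations 3 to 1. On plate 1 the upper 2 also lie above that plate's solvent wells at concentrations 8 to 6, and on plate 3 at concentration 7. ENSOMYG00000004265 lies just above them at concentration 5 on plate 1 as well.

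Among the risen genes, 2 had no count in any of the 24 solvent wells and were singled out here for that reason. The first had 15 and 13 counts at concentration 1 and 6 and 4 at concentration 2, and the second had 17 and 5, then 6 and 9. Both had 0 counts over the wells of concentrations 7 and 8, and 59 and 53 over those of concentrations 3 and 4. Both passed the filter through col wells alone and had to differ to be tested, and DESeq2 called neither, with adjusted p of 0.375 and 0.468 for the first and 0.118 and 0.132 for the second. In solvent, a count of 0 allows up to 0.649 CPM over all wells by counting error alone. At the other end, 49 of the 83 risen and 255 of the 283 fallen genes had a count in every solvent well.

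These genes were also read at the highest concentration of the chemicals coded met (labelled 56.47) and dip (labelled 57.64), whose concentrations differ from those of col. For met, with the same solvent wells, 30.8% of all genes tested changed. There 48 of 78 tested risen genes were called higher (11.5% of all genes) and 241 of 283 fallen genes lower (19.3%), with 1 higher. The medians were 1.38 and -1.74. For dip, in the second batch with 15 solvent wells of its own, 46.0% of all genes tested changed. There 56 of 75 risen genes were called higher (21.9%) and 2 lower, and 243 of 283 fallen genes lower (24.1%) and 4 higher. The medians were 1.10 and -1.33. The wells of dip held 67.3% to 113% of their library's median total, so their totals were not low as those of col were. The wells of met held 24.3% to 38.4% of theirs. Whether the calls shared with col depend on well totals was not tested.

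Set against met directly, 9 of 2908 genes differed (0.309%), with 0.0688% higher in col and 0.241% lower. Among them were 0 of 78 risen and 3 of 283 fallen members, the latter lower in col. The members differed by medians of 0.47 and -0.75 on the log2 scale, against -0.20 for all genes. With the plate as a replicate block 28 genes differed, 17 higher and 11 lower in col. Against dip, with each batch's solvent removed, 81 of 5382 differed (1.51%), with 0.111% higher in col and 1.39% lower. Among them were 4 of 82 risen genes, higher in col, and 36 of 283 fallen genes, lower in col. The medians were 0.57 and -1.30, against -0.69 for all genes. With the replicate block 160 genes differed, 31 higher and 129 lower. DESeq2 called 41, of which 31 were higher and 10 lower, and edgeR with median-of-ratios scaling 28, with 13 higher and 15 lower, so the direction against dip depends on the method. Since the col wells in these comparisons also chose the members, their share among the differences is a description.

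The split between rises and falls moved with the scaling and the tool. With edgeR and median-of-ratios scaling in place of TMM, an alternative chosen after seeing the data, 690 genes changed at concentration 1, 353 higher and 337 lower, and 544 at concentration 2, 249 higher and 295 lower. At both concentrations 141 rose and 185 fell, among them all 83 risen members and 185 of the 283 fallen ones. These fold changes lay above those with TMM by a median of 0.30 and 0.37 on the log2 scale. DESeq2 with its size factors called 591 genes at concentration 1, 376 higher and 215 lower, and 438 at concentration 2, 277 higher and 161 lower. It called 265 at both, of which 156 rose and 109 fell. Its fold changes lay above those of edgeR by a median of 0.30 and 0.38 on the log2 scale. All 366 members kept their sign in the 3 fits, and DESeq2 called 79 of the 83 rises and 109 of the 283 falls. Without a low-count filter, 13 of the 83 rises and 273 of the 283 falls were called again. With the 4 most counted IDs removed, 44 of the 83 rises, which include those 4, and all 283 falls were called. With 1 of the 2 col replicates left out, each concentration had 1 well, whose spread is assumed to be that of the other groups. Without replicate 1 and without replicate 3, fewer genes passed at both concentrations, and most of the 83 rises did not pass in either fit. Most of the 283 falls also did not pass without replicate 3. With the solvent wells summed to 1 sample per plate, 509 genes changed at concentration 1, 475 at concentration 2 and 287 at both, of which 83 rose and 204 fell.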

How the data were processed

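The authors deposited raw counts per Ensembl gene ID and well, as whole numbers whose totals differ between wells. Per the labels' protocols, libraries were made with a QIAseq UPXome kit. Which aligner, counter, strand setting and annotation were used is not given in the sources used here. From these counts, wells under 24095 counts were dropped and 20 col wells of all concentrations were fitted with 24 solvent wells in edgeR 4.0.16 (TMM scaling, at least 74.4 CPM in 2 wells, quasi-likelihood test, Benjamini-Hochberg adjusted p under 0.05). The members and lists were chosen with earlier results of these data known. Named IDs had the same sign on each kept plate, a mean log2 CPM of at least 6 and at least 10 counts, in each col well for rises and in the median solvent well for falls, and were ranked by the smaller of their 2 changes. Gene lists and markers drawn up for this work were not run, because no ID has a name. The fits were tested on simulated counts that held no plate effect and had rises and falls in near balance. That test cannot speak to the scaling or to the split between rises and falls. A passage per plate pairs the wells: deviations correlated by a median of 0.115 within and -0.0641 between plates. Alternatives were DESeq2 1.42.0, no filter, the plate as a replicate block, left-out replicates, other control wells, median-of-ratios scaling, thinning and removal of the 4 most counted IDs.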

Additional observations from a re-analysis of the deposited data

Results flagged for a closer look

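The 4 left-out wells of replicate 2 showed a risen share above every solvent well of their plate, of which the highest held 17.4% of the counts outside the 4 most counted IDs. The share of the risen genes was 33.9% at concentration 1, 37.6% at concentration 2, 35.6% at concentration 3 and 30.2% at concentration 4. The wells held 5764, 7940, 7529 and 15710 counts.

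In 3 of 24 groups of 8 solvent wells examined, 1 well lay far above the others, where chance gives about 1 group in 20. ENSOMYG00000046543 had 252 CPM in 1 well of plate 1, against 166 CPM in the next. ENSOMYG00000037113 had 331 CPM in 1 well of plate 2, against 209 CPM in the next. ENSOMYG00000004265 had 111 CPM in 1 well of plate 3, against 49.0 CPM in the next.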

How the results depend on the processing

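Of 77 counts recomputed under alternatives, 54 stayed within 1.5 times the reported one. This compares totals only, also where the split between rises and falls moved, and 0 against 0 counts as the same. For the genes changed at concentration 1, concentration 2 and both, leaving out 1 replicate gave 274 to 704, 152 to 644 and 102 to 376 genes, and thinning all wells to 60123 counts gave 412, 367 and 238. The cause was not tested, but thinning left 1309 genes to test. Under the replicate block, which takes the plate pairing into the fit, 467 genes changed at both, 142 higher and 325 lower, and the split also moved without a filter (17 and 346) and with the 4 most counted IDs removed (53 and 405). With concentrations 7 and 8 of the same libraries as control there were 411, 110 higher and 301 lower. With the solvent wells of plates 1 and 3 only there were 431, 105 higher and 326 lower. With solvent wells under the lowest col total left out, an alternative chosen after seeing the data, there were 425. Concentration 1 against 2 gave 1 gene with all wells kept and 0 otherwise. Concentrations 3 and 4 against 7 and 8 gave 1375 genes without a filter and 427 to 1056 with a replicate left out. Against met, 5 genes differed by DESeq2, 0 without a filter (1257 at an unadjusted p under 0.05 by edgeR), 28 with the block, 16 with all wells kept and 0 to 7 with a replicate left out. Against dip the numbers were 41 by DESeq2, 28 by edgeR with median-of-ratios scaling, 160 with the block, 262 with all wells and 3 to 88 with a replicate left out. The 4 named IDs kept their direction in all 120 values and the test's threshold in 116, the others being the 2 named rises without replicate 1 or 3. Depth limits the falls, since a count of 0 over both wells of a concentration allows up to 3 counts by counting error alone.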
